A study of Homo sapiens with 6 samples.

Results

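The EGFR family comprises 4 receptors and their ligands, and 10 of its genes were examined here in an esophageal squamous cell carcinoma (ESCC) cell line and a derivative edited in NFE2L2, the gene encoding the transcription factor NRF2. The receptors were EGFR, ERBB2, ERBB3 and ERBB4, and the ligands were EGF, TGFA, AREG, EREG, HBEGF and NRG1. They were taken from the table by symbol, as members of the family, and were chosen with earlier results of these data known. Each of the 10 symbols occurred once among the 58884 genes of the table, and all 10 were among the 15994 genes tested. RNA-seq was performed on KYSE70, an established human ESCC line with a mutant NFE2L2 gene, and on NRF2null-KYSE70, which was grown from 1 clone of KYSE70 after CRISPR-Cas9 editing of NFE2L2. Each line gave 3 libraries of untreated cells, grown in RPMI1640 medium with fetal bovine serum. With 1 clone, an effect of the edit and a property of the clone cannot be told apart.

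The receptors of this family are tyrosine kinases of the cell surface that pair when a ligand binds, and signal through the RAS-ERK and PI3K-AKT pathways. ERBB2 has no known soluble ligand of its own and acts as a partner, whereas ERBB3 has a weak kinase and depends on its partner. The ligands are made as membrane-anchored precursors and are released by shedding proteases. AREG, TGFA and EGF bind EGFR, HBEGF and EREG bind EGFR and ERBB4, and neuregulins such as NRG1 bind ERBB3 and ERBB4. EGFR is often abundant in squamous cancers, including those of the esophagus.

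The depth was 52072801 to 63975313 gene-assigned reads a library. The NFE2L2 transcript had a mean normalized count of 9928 ± 102 in the parent and 6093 ± 319 in the clone (SD, n = 3), that is 61.4% of the parental level, and a frameshift edit need not remove the transcript. The study reported a faint NRF2 protein band of lower weight in the clone, and stated that loss of NRF2 there was incomplete. All 11 epithelial markers, not all of them specific to squamous cells, were detected. Their summed normalized counts were 404838 to 414228 in KYSE70 and 313597 to 327964 in NRF2null-KYSE70. Of these markers 6 rose, 4 fell and 1 did not pass at an adjusted p under 0.05 (limma), and their median was 0.30 on the log2 scale. The keratin KRT5, the most abundant of them, fell from a mean of 209917 to 124640 normalized counts. Among fibroblast markers, COL1A2 and DCN had 0 reads in every library, and the summed level of the 5 genes, nearly all COL1A1, was 1172 to 1336 in KYSE70 and 479 to 627 in the clone. PDGFRB, of the same list, had 0 reads in KYSE70 and 41 in the clone (12.2, 14.7 and 16 normalized counts). The leukocyte marker PTPRC had 1 read in KYSE70 and 125 in the clone, a ratio of 138 with a 95% counting interval of 24.3 to 5483, while CD3E had 0 and 1 reads. The 4 leukocyte markers summed to 0 to 6.33 and 42.2 to 58.2 normalized counts. The 3 endothelial markers, nearly all VWF, summed to 133 to 149 and 275 to 450 normalized counts, with PECAM1 and CDH5 at 1 read or fewer in total in each line. The part of these markers in the results was not tested.

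Of the 10 genes, 6 rose in NRF2null-KYSE70, none fell and 4 did not pass the test (limma on log2(normalized count + 1), Benjamini-Hochberg adjusted p under 0.05). Across all tested genes 57.6% passed, 29.3% as higher and 28.3% as lower. The share of 6 in 10 that passed in either direction thus lay near the background. With a change of at least 1 on the log2 scale required as well, 5 of the 10 were higher, namely TGFA, AREG, EREG, NRG1 and ERBB4, and none was lower. Of all tested genes, 14.7% passed both conditions, 7.23% as higher and 7.43% as lower. The median log2 fold change was 1.00 over the 10 genes and -0.01 over all tested genes. EREG reached the filter on low values only through the clone, so its presence among the tested genes depended on its being higher there. In bulk RNA, a change per cell and a change in the share of cells with the transcript cannot be told apart.

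**Figure D1:**
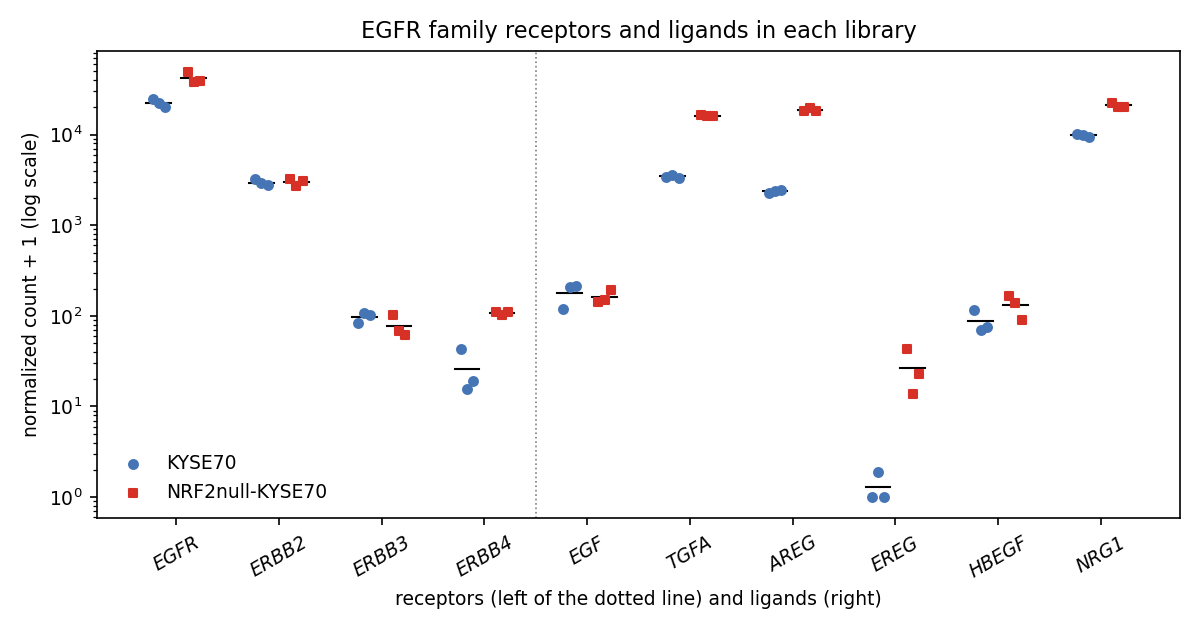
Normalized count plus 1 of each receptor and ligand in the 6 libraries, on a log scale, with black bars for the mean of 3 libraries. The libraries of the lines do not overlap for EGFR, ERBB4, TGFA, AREG, EREG and NRG1, and they overlap for ERBB2, ERBB3, EGF and HBEGF. The share of all tested genes without overlap was not counted, so whether this separation is unusual cannot be said. By another measure, 57.6% of all tested genes passed an adjusted p under 0.05 (limma).

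Among the EGFR ligands, AREG, TGFA and EREG rose in the clone, whereas EGF and HBEGF did not pass the test. AREG encodes amphiregulin and lies on the plus strand of chromosome 4 (hg38, chr4:74445136-74455005). Its normalized counts were 2266, 2377 and 2421 in the KYSE70 libraries and 18428, 19454 and 18031.5 in the NRF2null-KYSE70 libraries. All 3 libraries of the clone stood far above all 3 of the parent, and the spread within each line was small. The means were 2355 ± 80 and 18638 ± 734 (SD, n = 3), a 7.91-fold difference. On the log2 scale the change was 2.98 with an SE of 0.0499 (limma adjusted p = 2.81e-13).

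TGFA encodes transforming growth factor alpha and lies on the minus strand of chromosome 2 (hg38, chr2:70447284-70554193). Its normalized counts were 3383, 3616 and 3355 in KYSE70 and 16640.4, 15955 and 15835 in NRF2null-KYSE70. As for AREG, the lines were separated in every library. The means of 3451 ± 143 and 16144 ± 434 (SD, n = 3) differed 4.68-fold. This was 2.23 on the log2 scale, with an SE of 0.0487 (limma adjusted p = 2.8e-12).

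EREG encodes epiregulin and is a near neighbour of AREG, with its start 79.991 kb before that of AREG on the same strand (hg38, chr4:74365145-74388749). The KYSE70 libraries held 1 EREG read in all, giving normalized counts of 0, 0.907 and 0. In NRF2null-KYSE70 there were 73 reads, with normalized counts of 41.6, 12.7 and 21.7. EREG was thus detected in every library of the clone, but its libraries differed more than 3-fold among themselves. The ratio of reads at equal scaling was 80.4, with an exact 95% interval of 14 to 3220.02 that covers counting error only. The test passed (limma adjusted p = 0.00041), but EREG was tested only because of its level in the clone, so this p adds no support. The fitted log2 value of 4.26 depended on the pseudocount, from 2.41 to 6.71 over 17 alternative settings.

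Because AREG and EREG rose from nearby starts, the 250 bases before each start are shown, from RefSeq on GRCh38.p14, plus strand, 5′ to 3′, with motif matches in capitals. The AREG sequence (chr4:74444886-74445135) has in capitals TGACGTCA, the cAMP response element, at -65 to -58 from the start. The EREG sequence (chr4:74364895-74365144) has in capitals CATTCC, which is the TEAD element GGAATG read on the minus strand, at -175 to -170.
AREG: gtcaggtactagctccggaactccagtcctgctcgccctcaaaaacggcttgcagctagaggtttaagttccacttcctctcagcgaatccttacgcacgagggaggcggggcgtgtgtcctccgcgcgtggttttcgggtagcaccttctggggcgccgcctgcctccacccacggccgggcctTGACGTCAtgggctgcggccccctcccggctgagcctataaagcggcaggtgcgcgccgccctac
EREG: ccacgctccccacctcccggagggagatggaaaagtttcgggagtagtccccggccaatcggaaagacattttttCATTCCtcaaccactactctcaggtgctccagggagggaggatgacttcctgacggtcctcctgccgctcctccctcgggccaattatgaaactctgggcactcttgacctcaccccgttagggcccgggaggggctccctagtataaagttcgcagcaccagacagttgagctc

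The motif search covered 5 elements on both strands in windows from 250 bases before to 50 bases after a start, and RefSeq windows were at hand for 8 of the 10 genes, with more than 1 window for EGFR and TGFA. The cAMP response element occurred in 1.85% of 35116 windows and, among the 8 genes, in AREG alone. The TEAD element occurred in 14% of all windows and in 3 of the 8 genes (EGFR, EGF and EREG). The antioxidant response element core that NRF2 binds, searched as TGACNNNGC, occurred in 13.3% of all windows and only in EGF among the 8 genes, where it overlapped an AP-1 element. The AP-1 element, searched as TGANTCA, occurred in 7.71% of all windows and in EGFR, ERBB2 and EGF. In EGFR, the AP-1 and TEAD matches lay before a start inside the gene (chr7:55109589-55109838). The bases before its first start (chr7:55018767-55019016) held neither. The percentages are per window, whereas a gene was counted if any of its windows had a match. The GC box, searched as GGGCGG, occurred in 45% of all windows and in 5 of the 8 genes, with a match in AREG at -9 to -4 that is not in capitals above. None of these matches shows binding, and the absence of a match concerns only these windows.

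EGF and HBEGF were the EGFR ligands whose libraries overlapped between the lines. EGF, the prototype of the family, was at 118, 206 and 209.8 normalized counts in KYSE70 and at 143, 149 and 194 in NRF2null-KYSE70. Every library of the clone lay inside the range of the parent. The log2 fold change was -0.10, with a 95% interval of -0.59 to 0.39 (limma adjusted p = 0.726). HBEGF, which encodes heparin-binding EGF-like growth factor, was at 116, 68.9 and 73.8 normalized counts in KYSE70 and at 163, 139 and 89.0 in NRF2null-KYSE70. The first library of the parent exceeded the third library of the clone. The log2 fold change of HBEGF was 0.59, with a 95% interval of 0.01 to 1.17 (limma adjusted p = 0.0782). That p was 0.0254 without the first KYSE70 library, 0.0167 without the third NRF2null-KYSE70 library and 0.0464 with quantile normalization, within a range of 0.0167 to 0.242 over 18 alternatives.

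NRG1 encodes neuregulin 1 and lies on the short arm of chromosome 8. Its normalized counts were 10198, 10022 and 9389 in KYSE70 and 22584, 20205 and 20077 in NRF2null-KYSE70. The lines did not overlap, and the means of 9869.8 ± 425 and 20955.5 ± 1412 (SD, n = 3) differed 2.12-fold. The log2 fold change was 1.08 with an SE of 0.0556 (limma adjusted p = 5.56e-09). With quantile normalization it was 0.96 and no longer reached 1, and after subtraction of the median change of each chromosome arm (arm-centring) it was 1.47, since the median on 8p was -0.38.

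The ligands of the family outside the 10 genes were NRG2, NRG3, NRG4, BTC and EPGN, and of these NRG4 was the single gene tested. NRG4, a neuregulin that binds ERBB4, was at 590.5, 546 and 699 normalized counts in KYSE70 and at 6.09, 26.5 and 32.0 in NRF2null-KYSE70. It moved opposite to NRG1, to 3.52% of its level in the parent (-5.04 ± 0.441 SE on the log2 scale, adjusted p = 7.6e-07 by limma). NRG2 had 12 and 8 reads, EPGN had 7 and 2, BTC had 0 and 6 and NRG3 had 0 and 0 in KYSE70 and the clone. EPGN and BTC lie on either side of EREG and AREG on chromosome 4 (hg38, chr4:74308470-74316789 and chr4:74744759-74794523). A change in those genes could not be assessed at this depth.

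Of the receptors, EGFR and ERBB4 rose, whereas ERBB2 and ERBB3 did not pass the test. EGFR lies on chromosome 7 (hg38, chr7:55019017-55211628). Its normalized counts were 24465, 22068 and 20298 in KYSE70 and 49039, 38295 and 38732 in NRF2null-KYSE70. The lines were separated, with means of 22277 ± 2091 and 42022 ± 6081 (SD, n = 3) and a 1.89-fold difference. On the log2 scale EGFR changed by 0.91 with an SE of 0.0897 (limma adjusted p = 2.24e-06), which is under the fold condition, with a 95% interval of 0.72 to 1.11.

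ERBB4 was the least abundant receptor of KYSE70 and lies on chromosome 2 (hg38, chr2:211375717-212538841). Its normalized counts were 41.8, 14.5 and 17.9 in KYSE70 and 111, 102 and 108 in NRF2null-KYSE70. The first KYSE70 library stood above the other two, yet below every library of the clone. These values rested on 80 reads in the parental libraries and 308 in those of the clone. The log2 fold change was 2.21 with an SE of 0.359 (limma adjusted p = 0.00017).

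ERBB2, the partner receptor, lies on chromosome 17 (hg38, chr17:39687914-39730426). It was at 3230.1, 2888 and 2753 normalized counts in KYSE70 and at 3255, 2692 and 3054 in NRF2null-KYSE70. The libraries of the lines were interleaved. Its log2 fold change was 0.02, with a 95% interval of -0.15 to 0.19 (limma adjusted p = 0.849), so that a change of 2-fold lay well outside the interval. In the annotation, 571 bases of its exons overlap MIEN1 on the opposite strand, and whether the counting used strand was not stated.

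ERBB3, the main partner for neuregulin signals, lies on chromosome 12 (hg38, chr12:56076799-56103505). It was at 82.7, 106 and 101 normalized counts in KYSE70 and at 102, 67.7 and 60.5 in NRF2null-KYSE70. The first library of the clone lay within the parental range and the other two below it. Its log2 fold change was -0.36, with a 95% interval of -0.89 to 0.17 (limma adjusted p = 0.233).

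To compare levels between genes, reads were divided by exon length and scaled to the same total in every library (TPM, a unit of transcripts). In KYSE70 the receptors ranked EGFR (98.6 ± 10.4 TPM), ERBB2 (20.2 ± 1.89), ERBB3 (0.582 ± 0.0724) and ERBB4 (0.134 ± 0.0818) (SD, n = 3), with no overlap between neighbours in that order. In NRF2null-KYSE70 EGFR was at 183 ± 29.5 and ERBB2 at 20.1 ± 2.18 TPM. ERBB4 at 0.569 ± 0.031 and ERBB3 at 0.455 ± 0.141 TPM overlapped there, and with the length of the canonical transcript their order was the other way round, 0.342 and 0.531 TPM. EGFR made up 82.5% of the receptor TPM in KYSE70 and 89.6% in the clone, and the ratio of EGFR to ERBB2 was 4.87 ± 0.0906 and 9.06 ± 0.783 (SD, n = 3). The size of this ratio depends on the gene length used. With canonical transcripts EGFR was at 87.2 and 164 TPM and ERBB2 at 25.2 and 25.4 TPM in KYSE70 and the clone.

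Among ligands, the KYSE70 order was AREG (101 ± 2.58 TPM), TGFA (49.5 ± 2.5), NRG1 (32.6 ± 1.84), NRG4 (8.58 ± 0.986), HBEGF (2.03 ± 0.621) and EGF (1.64 ± 0.468), with EREG near 0 (SD, n = 3). HBEGF and EGF did not differ beyond their spread. With the length of the canonical transcript, TGFA at 32.5 ± 1.69 and NRG1 at 31.9 ± 1.99 TPM overlapped in KYSE70 (SD, n = 3). The order of TGFA and NRG1 in the parent thus depended on the length used. In NRF2null-KYSE70 AREG was at 785 ± 28.9, TGFA at 227 ± 9.65, NRG1 at 67.9 ± 5.66, HBEGF at 3.03 ± 0.911 and EGF at 1.47 ± 0.241 TPM. EREG at 0.309 ± 0.185 and NRG4 at 0.295 ± 0.185 TPM were last of those above 0.1 and overlapped. AREG was therefore the most abundant ligand RNA per length in both lines.

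The make-up of the ligand RNA shifted towards AREG. Its share of the summed ligand TPM was 50.8% to 52.9% in the KYSE70 libraries and 71.3% to 73.5% in those of NRF2null-KYSE70. The share of TGFA was 24.5% to 26.1% and 20.1% to 21.5%, although its own level rose. NRG1 held 15.8% to 17.6% in the parent and 5.87% to 6.71% in the clone, and NRG4 went from a mean of 4.4% to 0.0274%. No share of these 4 ligands overlapped between the lines. The shares rest on the union of exons as gene length and were not worked out with canonical transcripts.

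The summed TPM of EGF, TGFA, AREG, EREG and HBEGF was 154 ± 3.97 in the parent and 1017 ± 32.9 in the clone (SD, n = 3), 6.59 times as high. Relative to EGFR RNA, these ligands stood at 1.58 ± 0.179 and 5.65 ± 0.791 TPM per TPM of EGFR. The size of this ratio depends on the gene length used, and it was not worked out with canonical transcripts. With 3 libraries a line, an exact permutation test of such a ratio cannot go below p = 0.1, and none was made. The values describe RNA, and the ligand and receptor proteins were not measured in these files.

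**Figure D2:**
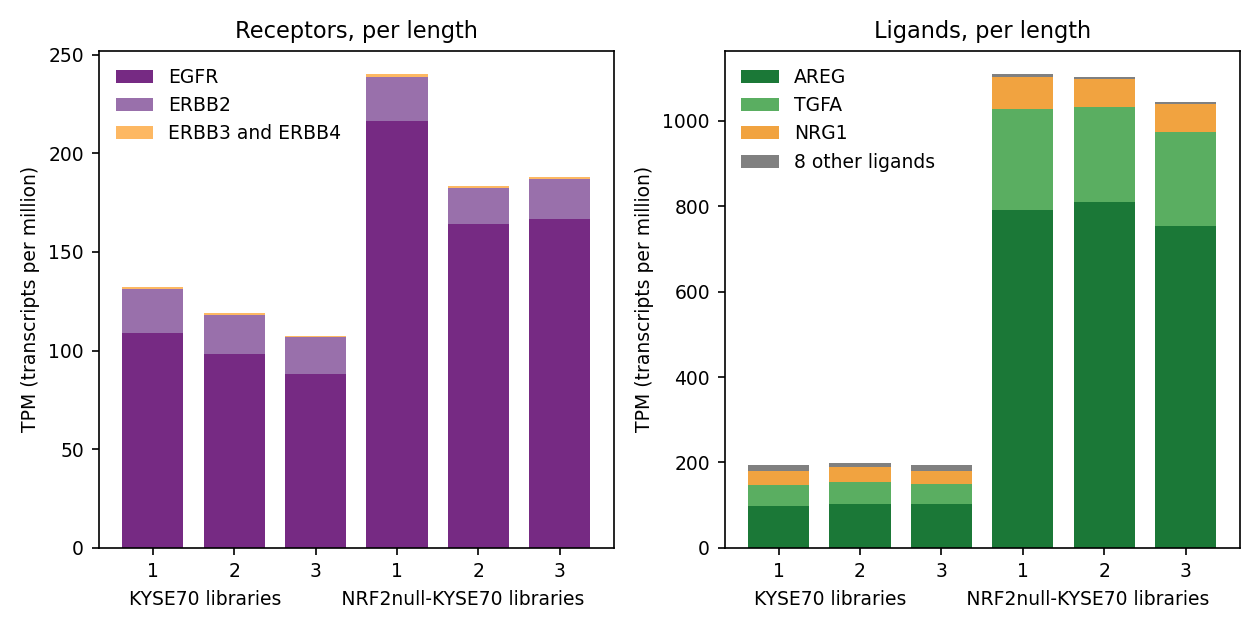
TPM of the receptors (left) and ligands (right) in each of the 6 libraries, as stacked bars starting at 0. EGFR fills most of the receptor bars in both lines, and AREG takes the largest part of the ligand bars, 51.7% on average in KYSE70 and 72.3% in NRF2null-KYSE70.

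The genes around each receptor and ligand were examined for changes shared by a region. The 20 nearest protein-coding genes of AREG, 10 on each side with a mean of at least 50, had a median log2 fold change of 0.18, and those of TGFA had 0.02. None of the neighbours of TGFA changed 2-fold, and their log2 fold changes lay between -0.81 and 0.83. The genes next to AREG and EREG in this set were MTHFD2L before EREG (0.15, adjusted p = 0.478) and RCHY1 beyond AREG (-0.18, adjusted p = 0.117, both by limma). Within the same 20, CXCL8 (4.02) and CXCL1 (2.89), which encode chemokines that attract neutrophils, rose with log2 fold changes of a size like that of AREG. They were picked out after their values were seen.

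The neighbours of EGFR had a median of 0.13, those of ERBB2 -0.03, of ERBB4 0.20, of EGF 0.00 and of HBEGF 0.06. Single neighbours went further, since 4 of 20 around EGFR were higher by 2-fold or more, and around ERBB4 4 were higher and 1 was lower. These were not all close by, and the nearest of the 4 around EGFR lay at -6847.56 kb from it. The starts of the 20 neighbours spanned 18.6 Mb for EGFR and 8.87 Mb for ERBB4, against 0.42 Mb for ERBB3. Of the neighbours of EGF 2 were lower by 2-fold or more, and of those of ERBB2 and HBEGF none changed 2-fold. The neighbours of NRG1 had a median of -0.21, below 0, while NRG1 itself rose. Around ERBB3, 20 of 20 neighbours fell, with a median of -0.75, against -0.38 for the whole arm 12q, and the value of ERBB3 (-0.36) lay within their range of -1.23 to -0.15. After arm-centring, the log2 fold change of ERBB3 was 0.02. The part of the surrounding region in these values was not tested.

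**Figure D3:**
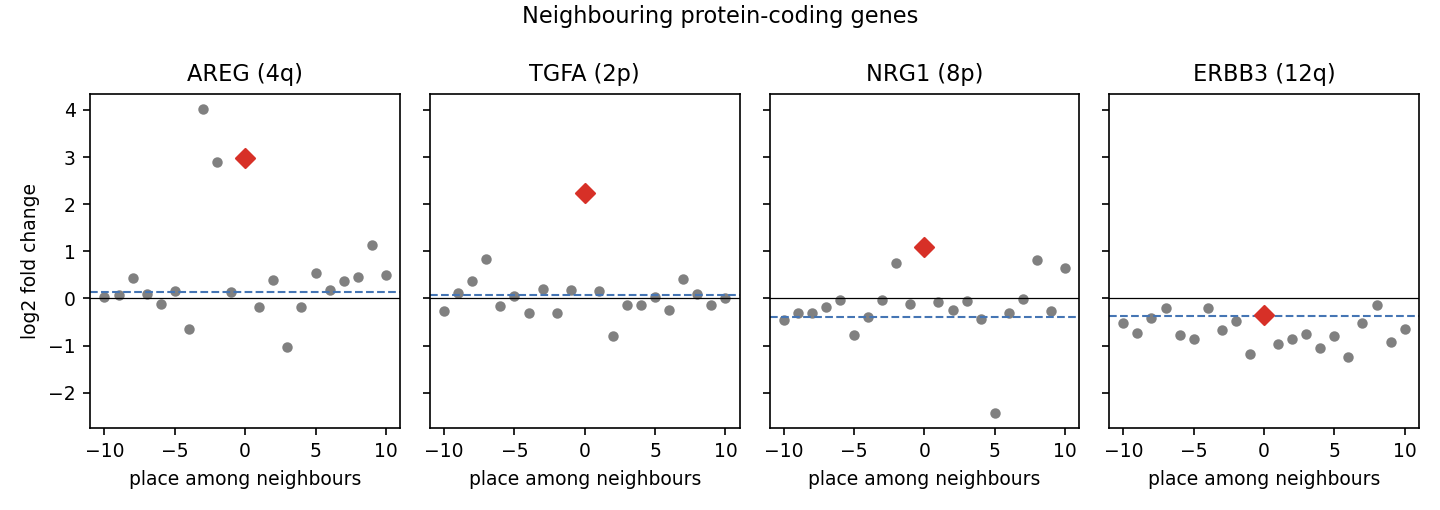
Log2 fold change (NRF2null-KYSE70 over KYSE70) of AREG, TGFA, NRG1 and ERBB3 (red diamonds at place 0) and of the 10 nearest protein-coding genes on each side (grey points, by place along the chromosome), with the arm median as a dashed line. AREG, TGFA and NRG1 stand above nearly all their neighbours, whereas the 20 neighbours of ERBB3 all lie below 0.

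The proteins that shed the ligand precursors were examined next. Of 5 such genes, 3 rose, none fell and 2 (RHBDF1 and FRMD8) did not pass the test, with a median log2 fold change of 0.32. These 3 of 5 lay near the 57.6% of all tested genes that passed in either direction, while 29.3% of all tested genes passed as higher. ADAM10, the main sheddase of EGF and betacellulin precursors, was at 8040 ± 360 normalized counts in KYSE70 and 19090 ± 1490 in the clone (log2 fold change 1.25, limma adjusted p = 2.65e-09). After arm-centring its value was 0.92, under the fold condition. ADAM17, the main sheddase of AREG, TGFA, HBEGF and EREG precursors, rose by 0.37 on the log2 scale, and RHBDF2, which helps ADAM17 to mature, by 0.32.

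The next list held 10 genes that restrain or degrade the receptors or are relatives of such genes. Of these 6 rose, 2 fell and 2 did not pass, with a median log2 fold change of 0.42. Of all tested genes 29.3% rose and 28.3% fell. At 2-fold or more 3 were higher and 1 lower, beside 7.23% and 7.43% of all tested genes. ERRFI1, an inhibitor that binds the EGFR kinase domain and is itself induced by EGFR signals, went from 896 ± 28.7 to 3493 ± 153 normalized counts (log2 fold change 1.96, limma adjusted p = 7.48e-11). LRIG1, a membrane protein that promotes loss of the receptors, went from 5419 ± 287 to 20388 ± 2309 (1.91, adjusted p = 3.14e-10). CBLC, a ubiquitin ligase of the CBL family, rose by 1.01. LRIG3, a relative of LRIG1, fell by 1.02 on the log2 scale. After arm-centring 6 genes of this list rose and 1 fell, but these were partly other genes than before, so the direction counts are not firm. CBLC was then at 0.99 and LRIG3 at -0.64, and both missed the fold condition.

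None of the adaptors and kinases of the RAS-ERK cascade changed 2-fold. Of 16 genes, 9 rose and 5 fell at an adjusted p under 0.05, and the median log2 fold change was 0.14. Of all tested genes 57.6% passed at that level and 14.7% with the fold condition. Over 18 alternatives between 5 and 9 rose and 4 or 5 fell. BRAF (0.80) and PTPN11 (0.56), a kinase of the cascade and a phosphatase that promotes it, had the largest rises, and GAB1 (-0.62), a docking protein, was among the genes that fell.

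In the PI3K-AKT branch, 10 of 11 genes were tested, of which 5 rose and 3 fell, with a median of 0.12, beside 57.6% of all tested genes that passed in either direction. PIK3R1, the regulatory subunit that stabilises and restrains PI3K, fell from 2500 ± 51.1 to 1102 ± 85.6 normalized counts (log2 fold change -1.18, limma adjusted p = 1.88e-08). The catalytic subunits PIK3CB and PIK3CD rose by 0.91 and 0.78. PIK3R1 alone in this list passed the fold condition.

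Genes known to be induced by ERK activity mostly rose. Of 16, 14 rose, 1 fell (EPHA4) and 1 did not pass (SPRY1, 0.02), beside 29.3% and 28.3% of all tested genes that rose and fell. At 2-fold or more, 9 were higher and 1 lower, beside 7.23% and 7.43% of all tested genes. In each of 18 alternatives 8 or 9 were higher. The median log2 fold change was 1.25. DUSP6, a phosphatase that inactivates ERK, went from 282 ± 37.7 to 3088 ± 218 normalized counts (log2 fold change 3.45, limma adjusted p = 3.96e-11). SPRY4 and SPRY2, which encode feedback inhibitors of receptor tyrosine kinases, rose by 2.98 and 2.75. EPHA4, an ephrin receptor, went from 2182 ± 142 to 383 ± 44.2 normalized counts (-2.51, adjusted p = 3.48e-10). ERK activity itself was not measured in these files.

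**Figure D4:**
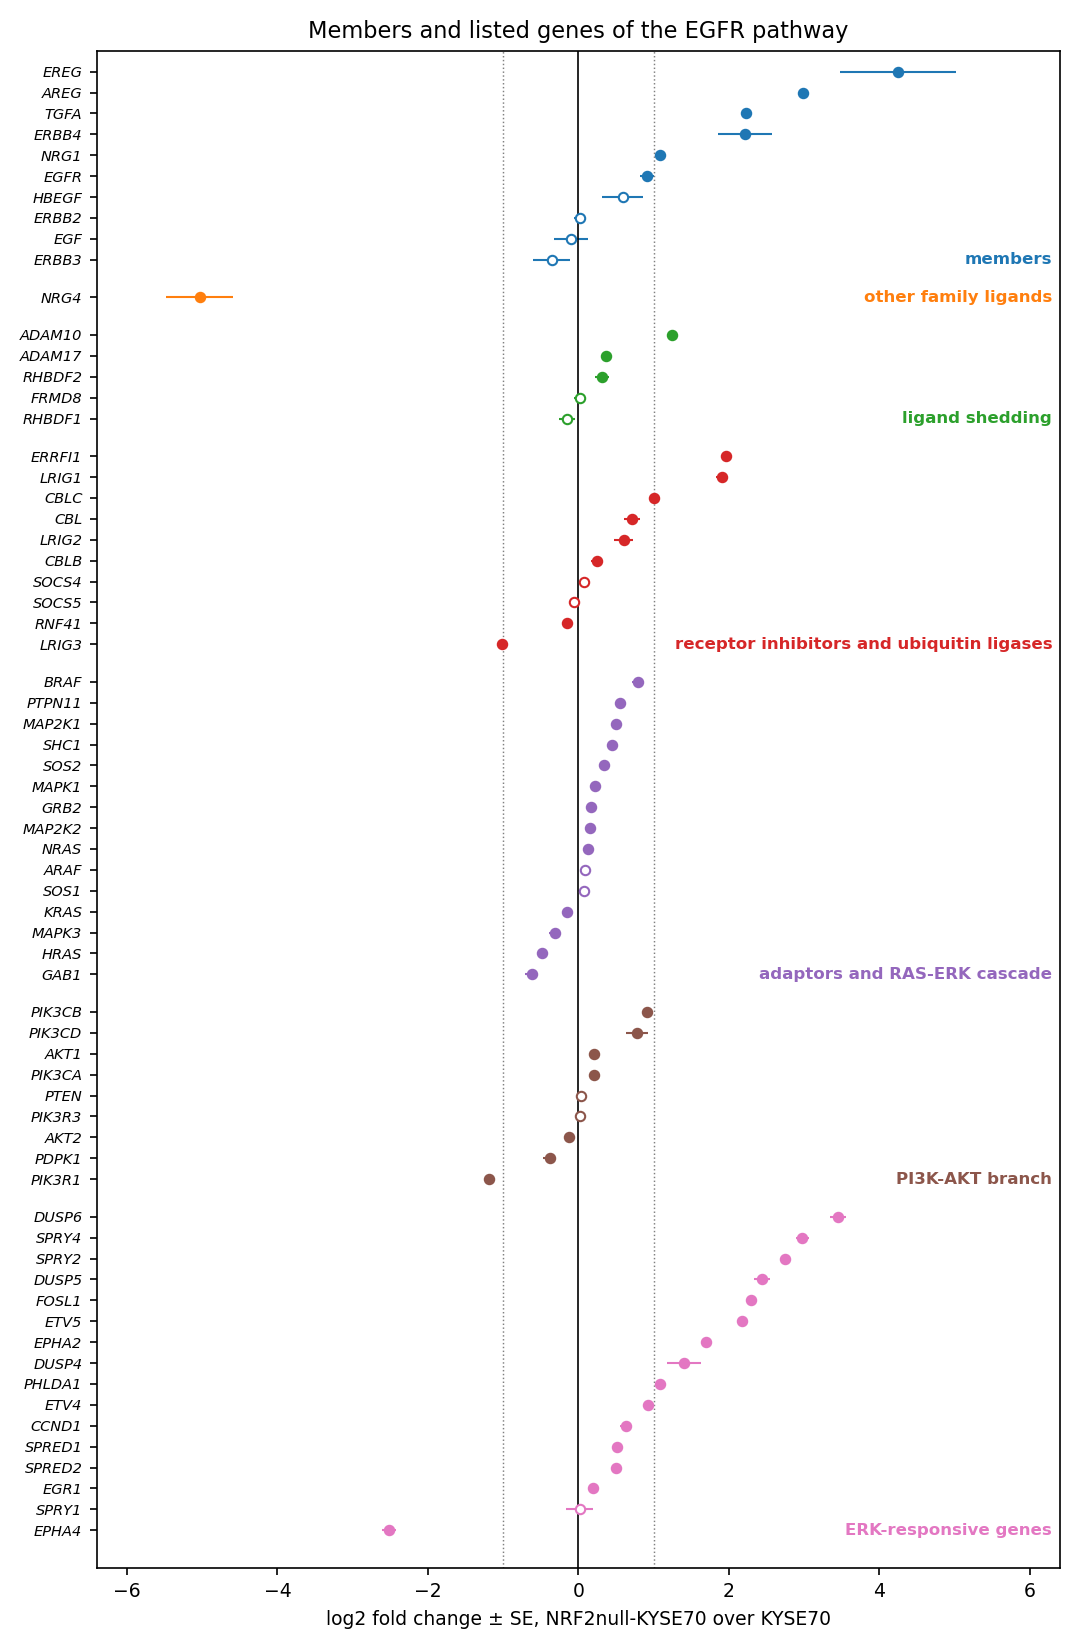
Log2 fold change (NRF2null-KYSE70 over KYSE70) with its SE for the 10 receptors and ligands, called members, and the tested genes of 6 pathway lists except 2 that are not reported here, with filled points for an adjusted p under 0.05 and dotted lines at -1 and 1. The points of the RAS-ERK cascade lie between -0.62 and 0.80, whereas 9 of the 16 ERK-responsive genes lie above 1. Of all tested genes, 7.23% passed as higher at 2-fold or more.

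Finally, the genes most like each receptor or ligand past both conditions were listed, by the Euclidean distance of log2 values over the 6 libraries, each relative to its KYSE70 mean, among 11990 genes with a mean of at least 100. The nearest to AREG were DKK1 (distance 0.133), SPRY4 (0.135) and MAFF (0.166), with log2 fold changes of 2.92, 2.98 and 2.91. For TGFA they were PTCHD1 (0.0999), ETV5 (0.138) and ULBP1 (0.151). SPRY4 and ETV5 were also on the list of ERK-responsive genes. For NRG1 the nearest included SPINT1 (0.071) and PFKFB2 (0.099). ERBB4 had VEPH1 (0.686), LINC01589 (0.695) and FBN1 (0.747), and EREG had SUSD2 (0.999), COL13A1 (1.06) and LINC02154 (1.27) at larger distances, with low counts of ERBB4 and EREG themselves. With 2 lines, such likeness is little more than a similar fold change with a small spread.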

How the data were processed

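RNA-seq libraries came from 2 human cell lines, 3 of each. Per the submitters' processing notes and the study's methods, reads were checked with FastQC 0.11.5, trimmed with cutadapt 1.12, aligned with STAR 2.6.90c to hg38 and counted per gene with featureCounts 1.5.1. The submitters' notes also list a mouse build, and hg38, the build in the study's methods, was taken for these human libraries. The authors then normalized the counts with DESeq2. The deposited values were therefore a signal in normalized counts, each a read count divided by 1 size factor per library. The value of 1 read was between 0.889 and 1.14, and 100% of values were whole multiples of it within 0.05, so reads were recovered. Columns named the line but no replicate, so libraries are numbered by column order. Whether the 3 libraries of a line came from separate cultures was not stated, so p-values measure the spread between these libraries.

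Differential expression was tested in R 4.3.3 with limma 3.58.1 (lmFit, eBayes with trend) on log2(normalized count + 1), which understates changes of low genes, for genes with a mean of at least 10. Tests were two-sided and adjusted by the Benjamini-Hochberg method over all tested genes. Genes passed both conditions when the adjusted p was under 0.05 and the log2 change reached 1 in either direction. Intervals and floors on reads cover counting error only. TPM used recovered reads and the union of GENCODE v44 exons, and 58472 gene identifiers were found in that annotation. Alternatives used edgeR 4.0.16 and DESeq2 1.42.0 on the recovered reads, other pseudocounts (0.1 and 5), filters, scalings, each library left out, and arm-centring with protein-coding genes of a mean of at least 50.

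The members, gene lists, motifs and tests were chosen with earlier results of these data known. Named were the 10 members, the 4 largest changes with an adjusted p under 0.05 in each pathway list, the 3 genes most like each member past both conditions, NFE2L2, marker genes and the neighbours of AREG and EREG, except 4 genes that are not reported here.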

Additional observations from a re-analysis of the deposited data

How the results depend on the processing

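The 10 receptors and ligands gave 5 calls past both conditions in the reported fit and under 16 of 18 alternatives. There were 4 with a filter at a mean of 50, where EREG was not tested, and 4 with quantile normalization, where NRG1 was at 0.96. EGFR stayed between 0.79 and 0.98, TGFA between 2.14 and 2.26, AREG between 2.84 and 3.01 and ERBB4 between 1.92 and 2.66 on the log2 scale. HBEGF passed an adjusted p under 0.05 in 3 of 18 alternatives. The sign of 3 genes that did not pass was unsteady. ERBB2 was at -0.0131 with quantile normalization, -0.0113 with arm-centring and -0.0558 with total-count scaling, and with a library left out it lay between -0.0414 (without NRF2null-KYSE70 replicate 1) and 0.0956, with a value below 0 also without KYSE70 replicate 3. ERBB3 was at 0.0224 with arm-centring. EGF lay between -0.371 and 0.0402 with a library left out, with values above 0 without KYSE70 replicate 2 or 3. Over all genes, 2344 passed both conditions, 1511 with a filter at a mean of 50, which tests fewer genes, and 9206 by adjusted p alone. The pathway lists, whose tested genes are counted list by list above, gave 17 calls, and 49 by adjusted p alone. Beside these stand 14.7% and 57.6% of all tested genes. Of the calls over all genes, 1188 were lower, against 1348 of 2401 with total-count scaling, which moved the median of all genes to -0.08, a small shift. No paired analysis was possible because columns carried no replicate numbers. Among the receptors and ligands tested, depth limited EREG and ERBB4 most, and NRG2, NRG3, EPGN and BTC had too few reads to be tested.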
